A study of Mus musculus with 14 samples.

Results

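The genes described here are 7 chemokine receptors of T cells: Cxcr3, Cxcr4, Cxcr6, Ccr2, Ccr4, Ccr6 and Ccr8. They were taken by gene name from a table of read counts for 22048 protein-coding genes, and all 7 were found and passed the filter on low counts. The 14 RNA sequencing libraries came from CD4+ T cells of C57BL/6 mice that carry a YFP reporter of interferon-gamma, the signature cytokine of Th1 cells. Spleens and peripheral lymph nodes were the source. The naive group (n = 3) was sorted without culture, as CD4+ CD44- CD62L+ cells. The other 4 groups began as enriched CD4+ T cells, without a sort for naive cells, and were kept for 4 days in Th1 conditions. These used anti-CD28 and anti-CD3 bound to the plate (1 µg/ml of each), IL-12 and IL-2 in the medium (10 ng/ml of each) and anti-IL4 (10 µg/ml). Cultures held 1 µM of SGC0946, which inhibits the histone H3 lysine methyltransferase DOT1L, or 1 µM of its inactive control SGC0649. The reporter then divided the cells into YFPneg and YFPpos. This gave YFPneg cells with SGC0649 (n = 2) and with SGC0946 (n = 3), and YFPpos cells with SGC0649 (n = 3) and with SGC0946 (n = 3). A Th1 culture with neither compound was not analysed here. The series calls its samples biological replicates, and nothing else says that they came from separate animals, so p-values measure the spread between these samples only.

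Chemokine receptors are G protein-coupled receptors that steer migrating cells along gradients of small secreted proteins, the chemokines. They signal through Gi proteins to PI3-kinase gamma, phospholipase C beta and Rac GTPases, and receptor kinases, arrestins and RGS proteins end the signal. Cxcr4, the receptor for Cxcl12, is carried by resting T cells and serves homeostatic traffic. Cxcr3, the receptor for the interferon-induced chemokines Cxcl9, Cxcl10 and Cxcl11, is the classical Th1 receptor. Cxcr6 binds Cxcl16 and marks effector and tissue-resident cells, and Ccr2 binds Ccl2 and its relatives and guides monocytes and effector T cells to inflamed tissue. Ccr4, which binds Ccl17 and Ccl22, and Ccr8, which binds Ccl1, are known from Th2, skin-homing and regulatory T cells. Ccr6, the receptor for Ccl20, is known from Th17 cells.

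In GENCODE M21 (GRCm38), Cxcr3 (ENSMUSG00000050232) lies at chrX:101731535-101734269 and Cxcr4 (ENSMUSG00000045382) at chr1:128588199-128592293, both on the minus strand. Ccr6 (ENSMUSG00000040899) lies at chr17:8236043-8257141 on the plus strand. The other 4 lie on chromosome 9. Ccr4 (ENSMUSG00000047898) is at chr9:114490316-114504916 on the minus strand. Ccr8 (ENSMUSG00000042262) at chr9:120092114-120094906, Cxcr6 (ENSMUSG00000048521) at chr9:123806475-123811760 and Ccr2 (ENSMUSG00000049103) at chr9:124101950-124113557 are on the plus strand. No exon of the 7 overlaps an exon of another gene. Of the 6758 stretches of 50 bases in Ccr2 transcripts, 129 (1.91%) also occur in transcripts of other genes. In Ccr4 the shared part was 0.465%, and the other 5 receptors had none.

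To show how unlike the start regions of these receptors are, bases before the RefSeq start (GRCm38.p6) are printed for Cxcr4 and Cxcr6, which were higher with SGC0946 in YFPpos cells, and for Cxcr3 and Ccr8, which were lower. Each run is in the sense of the gene, 5′ to 3′, and leaves out annotated exons. Capitals mark matches on either strand to the TATA box (TATAAA) in Cxcr4, to a Runx motif (TGTGGT) in Cxcr6 and to a GATA motif (AGATAA) in Ccr8. The 2 TATA box matches in Cxcr4 are on opposite strands and overlap.
Cxcr4 (chr1:128592300-128592549, minus strand): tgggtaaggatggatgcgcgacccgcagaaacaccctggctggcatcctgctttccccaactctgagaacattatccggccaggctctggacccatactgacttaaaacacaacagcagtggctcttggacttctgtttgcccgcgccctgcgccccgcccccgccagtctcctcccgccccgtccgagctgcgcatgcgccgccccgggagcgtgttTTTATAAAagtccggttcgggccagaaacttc
Cxcr6 (chr9:123806227-123806474, plus strand): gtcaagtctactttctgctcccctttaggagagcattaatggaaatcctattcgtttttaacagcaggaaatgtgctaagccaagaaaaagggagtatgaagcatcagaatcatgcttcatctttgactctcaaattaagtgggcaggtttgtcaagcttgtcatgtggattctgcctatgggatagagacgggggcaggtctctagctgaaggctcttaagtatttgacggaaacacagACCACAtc
Cxcr3 (chrX:101734270-101734397, minus strand): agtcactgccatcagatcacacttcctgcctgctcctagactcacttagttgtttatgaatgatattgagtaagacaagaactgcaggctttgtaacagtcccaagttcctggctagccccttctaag
Ccr8 (chr9:120091883-120092113, plus strand): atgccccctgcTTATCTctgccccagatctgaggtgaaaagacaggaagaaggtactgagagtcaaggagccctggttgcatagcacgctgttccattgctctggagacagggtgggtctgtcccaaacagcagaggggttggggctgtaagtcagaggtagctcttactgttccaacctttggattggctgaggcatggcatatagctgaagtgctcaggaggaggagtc

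Over the 250 bases before the start, the Cxcr4 window had 61.2% G and C and an observed-to-expected CpG ratio of 0.838, against medians of 52.4% and 0.374 over 32841 RefSeq windows of that length. CpG ratios were 0.255 for Cxcr6, 0.209 for Cxcr3 and 0.0575 for Ccr8, all below that median. The TATA box matches in Cxcr4 lay 30 and 32 bases before the start, and 12.4% of all windows hold this motif. The Runx match in Cxcr6 lay 10 bases before the start (14.05% of windows), and the GATA match in Ccr8 lay 239 bases before it (9.99% of windows). A Runx match also lay in the exonic part of the Cxcr3 window, which is not printed, and GATA matches also lay in windows of Ccr2 and Ccr6. The T-box letters GGTGTGA (3.33% of windows) were in no window of the 7 receptors. The AP-1 letters TGANTCA (6.75% of windows) were in that of Ccr4 only, and the STAT letters TTCNNNGAA (7.02% of windows) in 1 of the windows of Ccr6 only. A match of letters is a description, and no binding was measured.

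Total counts ranged from 14486577 to 31614057 per library. Levels are counts-per-million values scaled by TMM factors (CPM), and 3 counts, the limit that a count of 0 allows, correspond to 0.0921 to 0.209 CPM. Ifng, the gene behind the reporter, ranged over 0 to 0.187 CPM in the naive group, over 25.4 to 113.8 in YFPneg and over 532.5 to 928.7 in YFPpos libraries. Unmapped reads made up 3.14% to 4.62% in YFPneg libraries and 6.44% to 8.35% in YFPpos libraries, except YFPpos SGC0946 replicate 2 at 3.61%. This share moved with the sort, and its part in differences between sorts was not tested. Log2 fold changes, their standard errors (SE) and adjusted p-values come from edgeR's quasi-likelihood test, with Benjamini-Hochberg adjustment over the 12343 genes tested, and a gene was called at an adjusted p under 0.05. In bulk RNA, fewer cells that carry a receptor and less of its RNA per cell cannot be told apart.

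Ccr2 was highest in YFPpos SGC0946 cells. In naive cells its libraries stood at 1.14, 0.623 and 0.964 CPM. With SGC0649 they stood at 16.4 and 9.66 CPM in YFPneg and at 43.1, 31.1 and 26.8 in YFPpos cells. With SGC0946 they stood at 38.6, 33.2 and 29.1 CPM in YFPneg and at 134.7, 165.4 and 137.2 in YFPpos cells. The YFPpos SGC0946 libraries lay above all others without overlap. YFPneg SGC0946 and YFPpos SGC0649 overlapped, with means of 33.6 ± 4.76 (SD, n = 3) and 33.7 ± 8.43 (SD, n = 3).

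Cxcr4 was highest in naive cells. Its naive libraries stood at 92.2, 89.96 and 128.9 CPM. With SGC0649 the YFPneg libraries stood at 15.04 and 14.03 CPM and the YFPpos libraries at 12.3, 11.04 and 7.96. With SGC0946 the YFPneg libraries stood at 31.3, 28.4 and 33.7 CPM and the YFPpos libraries at 42.3, 51.1 and 42.6. No group overlapped its neighbour in the falling order naive, YFPpos SGC0946, YFPneg SGC0946, YFPneg SGC0649 and YFPpos SGC0649.

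Cxcr6 separated the sorts. Its naive libraries stood at 2.10, 1.31 and 2.50 CPM. YFPneg libraries stood at 4.27 and 2.88 CPM with SGC0649 and at 7.48, 4.68 and 4.88 with SGC0946. YFPpos libraries stood at 22.04, 13.9 and 15.3 CPM with SGC0649 and at 31.3, 31.5 and 27.2 with SGC0946. All 5 groups were free of overlap with their neighbours, with both YFPpos groups on top.

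Ccr4 and Ccr8 were highest in YFPpos SGC0649 cells. Ccr4 stood at 1.32, 1.25 and 1.08 CPM in naive cells, at 21.9 and 24.3 in YFPneg SGC0649 and at 34.8, 42.2 and 47.5 in YFPpos SGC0649 cells. With SGC0946 it stood at 25.6, 21.3 and 16.8 CPM in YFPneg and at 31.3, 28.1 and 29.1 in YFPpos cells. The YFPneg groups overlapped each other, and no other neighbours in the order did. Ccr8 stood at 1.02, 1.31 and 0.851 CPM in naive cells, at 6.30 and 5.86 in YFPneg SGC0649 and at 7.33, 7.07 and 11.1 in YFPpos SGC0649 cells. With SGC0946 it stood at 4.06, 4.24 and 2.37 CPM in YFPneg and at 4.13, 3.62 and 4.14 in YFPpos cells. All 6 SGC0946 libraries lay under all 5 SGC0649 libraries for Ccr8.

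Cxcr3, the Th1 receptor, was present in every cultured group. Naive libraries stood at 0.959, 0.748 and 0.794 CPM. With SGC0649 the YFPneg libraries stood at 12.7 and 7.91 CPM and the YFPpos libraries at 8.07, 8.65 and 11.9. With SGC0946 the YFPneg libraries stood at 10.3, 8.67 and 4.25 CPM and the YFPpos libraries at 4.31, 3.02 and 3.71. Each cultured group overlapped its neighbour in the falling order YFPneg SGC0649, YFPpos SGC0649, YFPneg SGC0946 and YFPpos SGC0946, and all lay above naive cells.

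Ccr6 was scarce in all groups. Its counts were 12, 4 and 11 in naive libraries, 9 and 3 in YFPneg SGC0649 and 12, 0 and 0 in YFPneg SGC0946 libraries. They were 2, 0 and 1 in YFPpos SGC0649 and 2, 1 and 1 in YFPpos SGC0946 libraries. The highest level was 0.719 CPM, in naive replicate 1, and every YFPpos library was below 3 counts. The gene passed the filter on low counts through naive libraries and 1 YFPneg SGC0946 library, so a difference from naive cells would have to favour the naive group and is no finding.

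**Figure D1:**
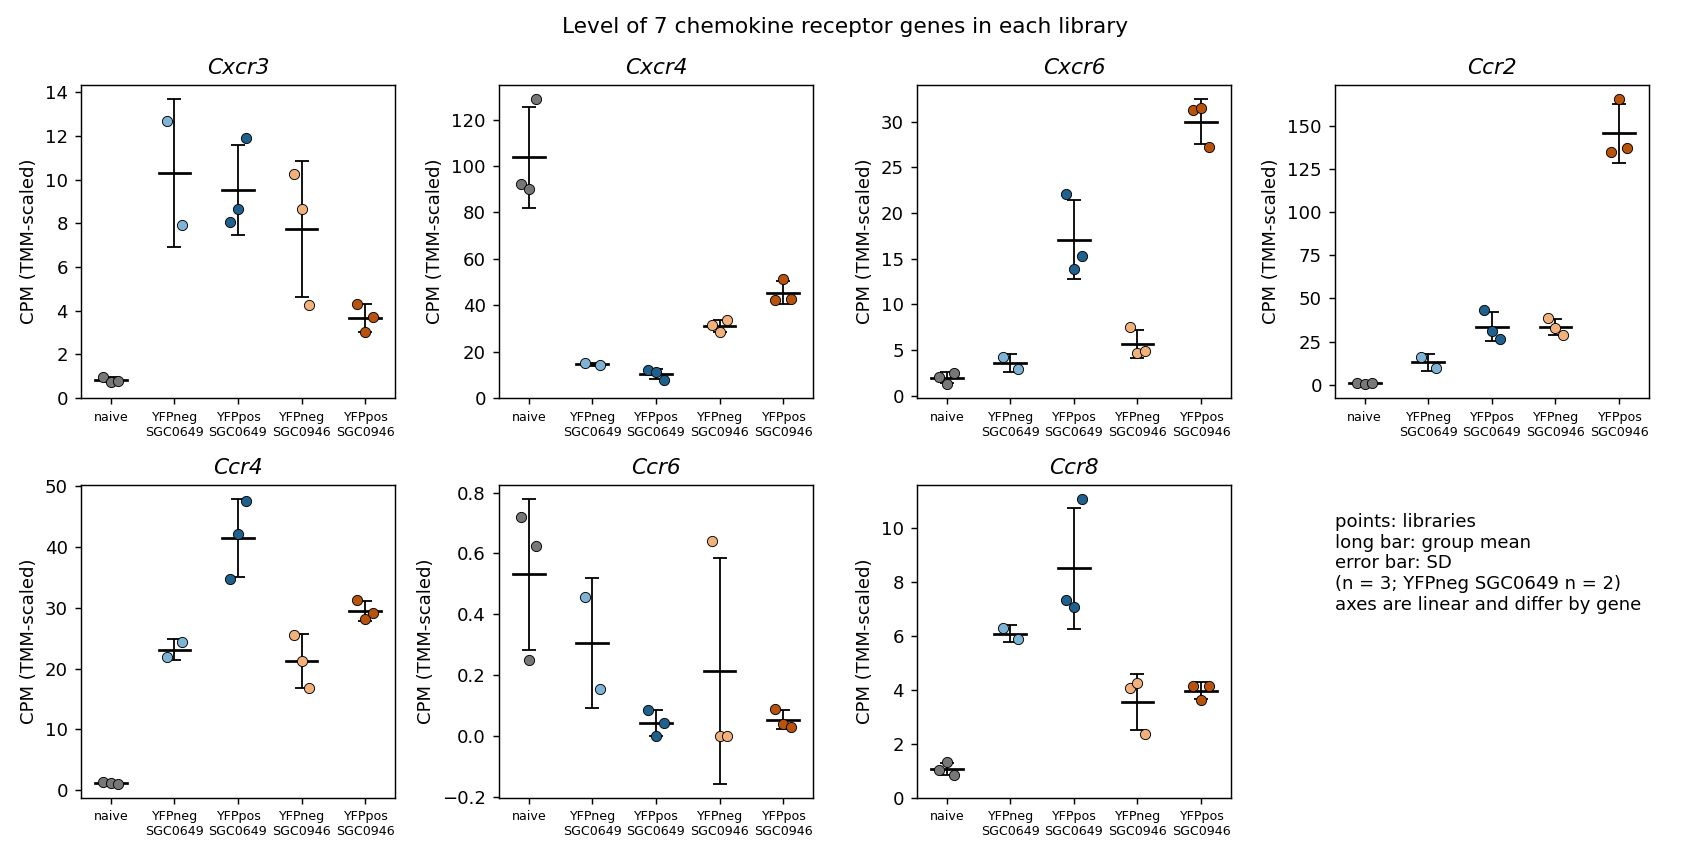
Level of each receptor in CPM (linear axes, 1 panel per gene) by group, with a point per library, the group mean as a bar and the SD as error bar. Cxcr4 is highest in naive cells, Ccr2 and Cxcr6 in YFPpos SGC0946 cells and Ccr4 and Ccr8 in YFPpos SGC0649 cells, while Ccr6 stays at or below 0.719 CPM.

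To compare receptors with each other, levels were divided by the length of the exons of each gene (CPM per kb). Naive cells held almost only Cxcr4, at 57.4 ± 12.1 (SD, n = 3) CPM per kb, or 94.7% of the sum over the 7 receptors. The next receptor, Cxcr6, was 56.3-fold lower in level. In YFPneg SGC0649 cells Cxcr4 (8.04), Ccr4 (7.47), Cxcr3 (5.95) and Ccr8 (5.17 CPM per kb) followed each other with overlapping libraries. In YFPpos SGC0649 cells Ccr4 led with 13.4 ± 2.07 (SD, n = 3) CPM per kb. Cxcr6 (8.85), Ccr8 (7.23), Cxcr4 (5.77), Cxcr3 (5.51) and Ccr2 (4.98 CPM per kb) came next, and each overlapped its neighbour in that order.

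With SGC0946 Cxcr4 had the highest mean level per kb of exon in both sorts. In YFPneg SGC0946 cells it stood at 17.2 CPM per kb, or 44.02% of the sum, and did not overlap Ccr4, the next at 6.86. In YFPpos SGC0946 cells Cxcr4 (25.1 ± 2.76 (SD, n = 3) CPM per kb) and Ccr2 (21.6 ± 2.52 (SD, n = 3)) overlapped. Cxcr6 (15.6), Ccr4 (9.55), Ccr8 (3.37) and Cxcr3 (2.13 CPM per kb) then followed without overlap. The summed level of the 7 was 45.8 ± 2.84 CPM per kb (SD, n = 3) in YFPpos SGC0649 and 77.2 ± 5.15 (SD, n = 3) in YFPpos SGC0946 cells. The order depends on the length used. With the longest transcript (5.73 kb for Ccr2) in place of all exons (6.76 kb), Ccr2 came to 25.4 and Cxcr4 to 25.1 CPM per kb in YFPpos SGC0946 cells, and in YFPneg SGC0649 cells Ccr4 (8.24) came before Cxcr4 (8.05).

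**Figure D2:**
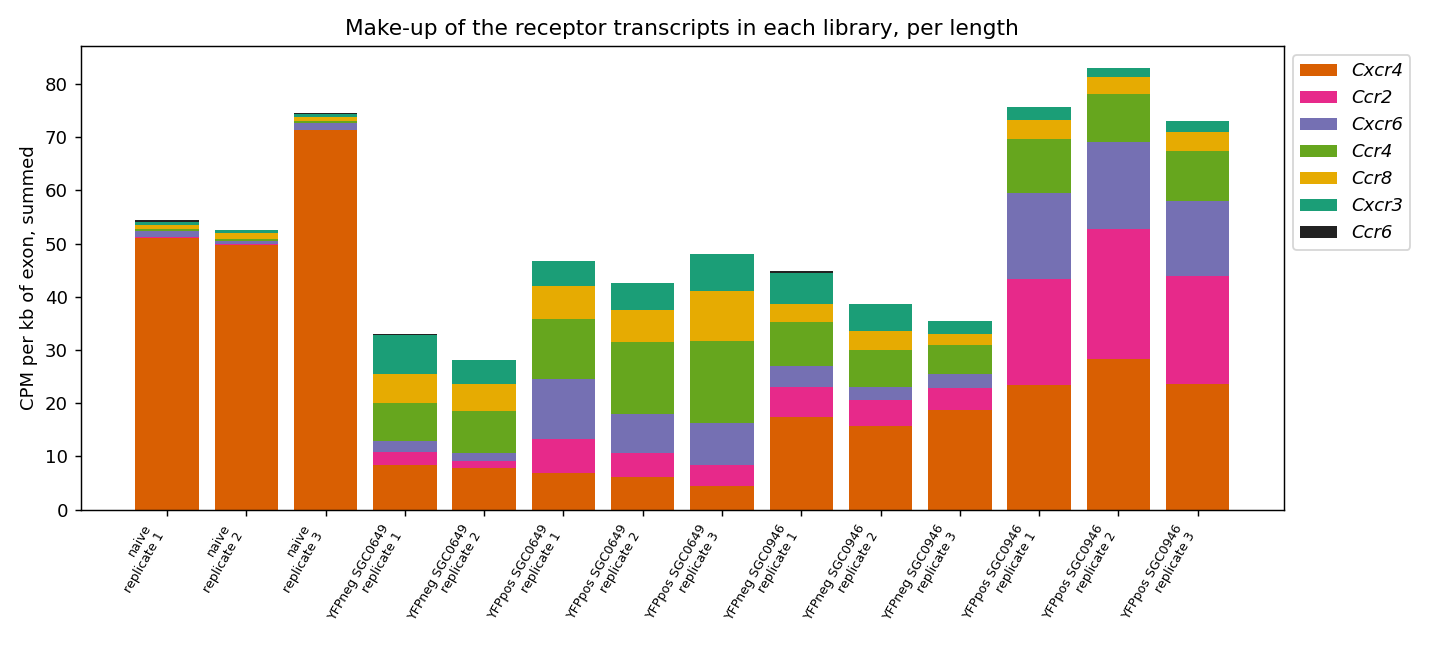
Sum of the 7 receptors in CPM per kb of exon (linear axis from 0) in each library, split by gene in colour. Cxcr4 fills most of each naive bar, and Cxcr4 and Ccr2 are the widest parts of the YFPpos SGC0946 bars.

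The first comparisons set each cultured group against naive cells, that is, the receptors after activation and Th1 polarization against those before it. Ccr6, which the filter let through mainly for its naive counts, is left out of the counts here and given as counts only. In YFPpos SGC0649 cells 5 of the other 6 receptors rose and 1 fell. In this comparison 79.8% of all genes tested were called, 42.6% higher and 37.3% lower. Ccr2 was 36.7-fold higher (log2 5.20, SE 0.28, adjusted p 1.5e-11) and Ccr4 34.1-fold higher (log2 5.09, SE 0.20, adjusted p 1.2e-13). Cxcr3 rose 11.4-fold (95% interval 6.82 to 18.96), Cxcr6 8.62-fold (5.94 to 12.5) and Ccr8 8.02-fold (5.28 to 12.2). Cxcr4 was 9.95-fold lower (log2 -3.31, SE 0.16, adjusted p 2.8e-12). For Ccr6 the naive group had 27 counts and the YFPpos SGC0649 group 3, a ratio of 11.99 with a 95% counting interval of 3.69 to 61.7. Groups did not overlap for 6 of the 6, against 86.4% of all genes.

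In YFPneg SGC0649 cells 5 of the 6 rose and 1 fell, beside 69.0% of all genes called (36.4% higher, 32.6% lower). Ccr4 (18.98-fold), Ccr2 (14.2-fold), Cxcr3 (12.3-fold) and Ccr8 (5.73-fold) rose, and Cxcr4 was 7.14-fold lower (log2 -2.83, SE 0.18, adjusted p 3.4e-10). Cxcr6 rose 1.80-fold (95% interval 1.14 to 2.85, adjusted p 0.022). That call was lost with limma-voom (adjusted p 0.12), on leaving out naive replicate 2 (0.095) or YFPneg SGC0649 replicate 1 (0.25). Ccr6 had 12 counts against 27 in naive cells. For 6 of the 6 receptors the libraries of the groups did not overlap, against 80.2% of all genes.

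With SGC0946 the directions against naive cells were the same for each of the 6 receptors. In YFPpos SGC0946 cells 5 of the 6 rose and 1 fell, beside 80.7% of all genes called (42.2% higher, 38.5% lower). Ccr2 stood 158.6-fold above naive cells (95% interval 106.7 to 235.8), Ccr4 24.2-fold, Cxcr6 15.1-fold, Cxcr3 4.38-fold and Ccr8 3.74-fold. Cxcr4 was 2.29-fold lower (log2 -1.19, SE 0.14, adjusted p 5.4e-07). Ccr6 had 4 counts against 27. Groups did not overlap for 6 of the 6 receptors, against 88.3% of all genes.

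In YFPneg SGC0946 cells 5 of the 6 rose and 1 fell, beside 72.9% of all genes called (38.6% higher, 34.3% lower). Ccr2 rose 36.7-fold, Ccr4 17.5-fold, Cxcr3 9.27-fold, Ccr8 3.38-fold and Cxcr6 2.89-fold. Cxcr4 was lower (log2 -1.74, SE 0.15, adjusted p 1.1e-08). Ccr6 had 12 counts, all in replicate 1, against 27. For 6 of the 6 receptors the libraries of the groups did not overlap, against 71.8% of all genes. The 4 comparisons share the naive libraries, and culture and starting population cannot be told apart in them.

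The next comparisons asked how the receptors differ between reporter-positive and reporter-negative cells of the same culture condition. With SGC0649, 3 receptors were higher in YFPpos cells, 1 was lower and 3 were not called, beside 45.2% of all genes called (23.9% higher, 21.3% lower). Cxcr6 was 4.78-fold higher (log2 2.26, SE 0.27, adjusted p 3.9e-06), Ccr2 2.58-fold higher (log2 1.37, SE 0.21, adjusted p 7.1e-05) and Ccr4 1.80-fold higher (log2 0.85, SE 0.15, adjusted p 0.00030). Cxcr4 was 1.39-fold lower (log2 -0.48, SE 0.18, adjusted p 0.043). That call was lost with limma-voom (adjusted p 0.12), with only these 2 groups in the fit (0.0503), and without YFPneg SGC0649 replicate 1 (0.18) or 2 (0.095). It was also lost without YFPpos SGC0649 replicate 2 (0.058) or 3 (0.15). The log2 difference of Cxcr3 was -0.11 (95% interval -0.74 to 0.52) and that of Ccr8 0.48 (-0.081 to 1.05). Ccr6 was not called, with 3 counts against 12. The libraries of the sorts did not overlap for 6 receptors, against 64.7% of all genes. Ccr6, with its 3 counts against 12, is among these 6.

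With SGC0946, 4 receptors were higher in YFPpos cells, 1 was lower and 2 were not called, beside 54.7% of all genes called (26.9% higher, 27.8% lower). Cxcr6 was 5.23-fold higher (log2 2.39, SE 0.22, adjusted p 1.2e-07) and Ccr2 4.32-fold higher (log2 2.11, SE 0.17, adjusted p 3.1e-08). Cxcr4 was 1.46-fold higher (log2 0.54, SE 0.15, adjusted p 0.0048) and Ccr4 1.39-fold higher (log2 0.47, SE 0.14, adjusted p 0.0082). Cxcr3 was 2.12-fold lower in YFPpos cells (log2 -1.08, SE 0.28, adjusted p 0.0039), although its libraries overlapped. Ccr8 had a log2 difference of 0.15 (95% interval -0.39 to 0.68), and Ccr6 was not called. The libraries of the sorts did not overlap for 4 receptors, against 59.6% of all genes.

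**Figure D3:**
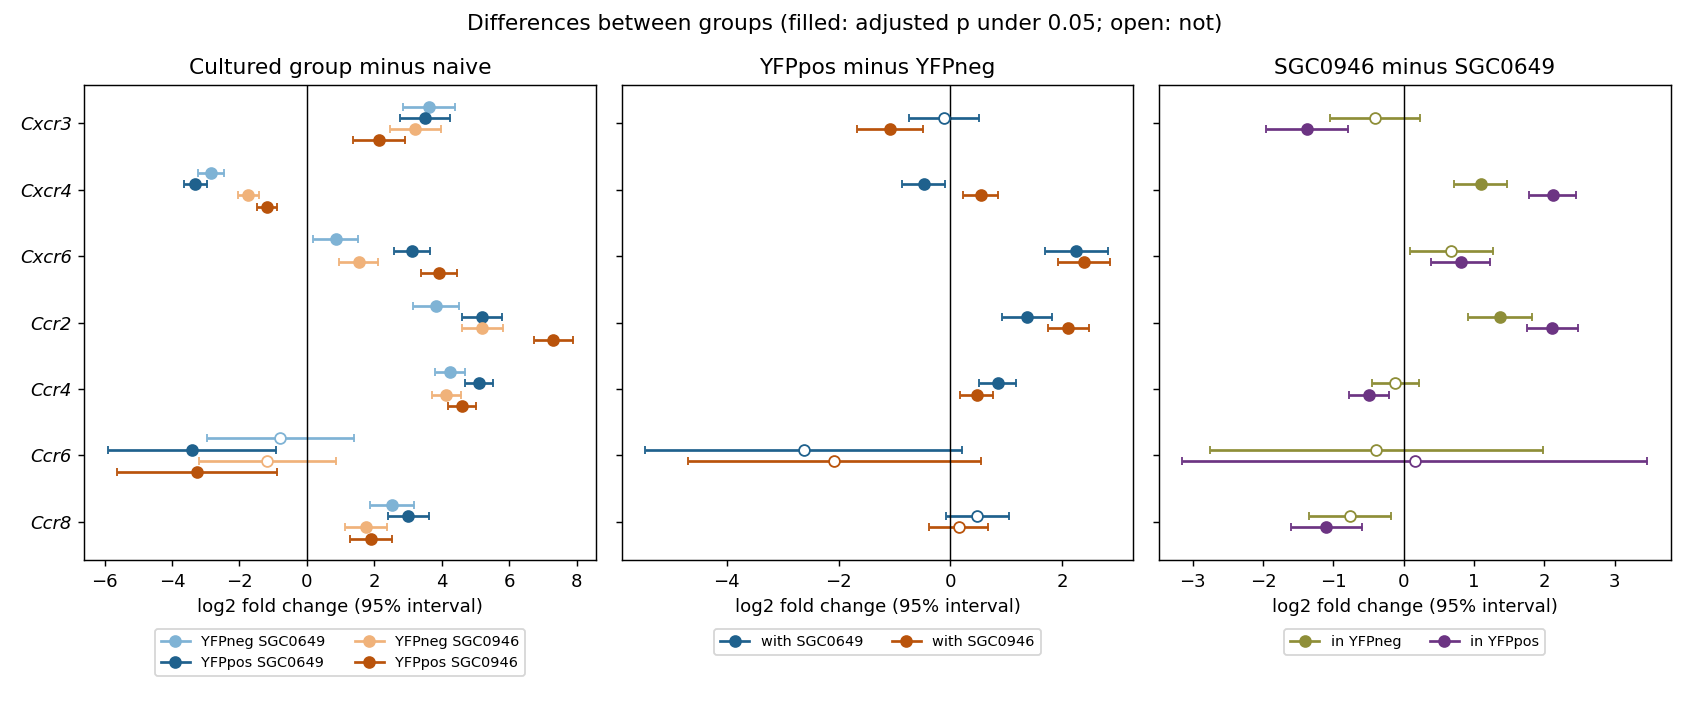
Log2 fold change of each receptor with its 95% interval, for the cultured groups against naive cells, for the sorts and for the compounds, filled where the adjusted p was under 0.05. For the compounds Cxcr4, Cxcr6 and Ccr2 lie above 0 and Cxcr3, Ccr4 and Ccr8 below 0 in both sorts, not all of them called, and Ccr6 has wide intervals.

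SGC0946 and SGC0649 were compared at the same dose (1 µM) and time (day 4) within each sort, which sets cells with DOT1L inhibited against cells with the inactive control. In YFPpos cells 6 of the 7 receptors were called, 3 higher and 3 lower with SGC0946. In this comparison 27.7% of all genes were called, 12.1% higher and 15.7% lower. Cxcr4 was 4.35-fold higher (95% interval 3.45 to 5.47; log2 2.12, SE 0.16, adjusted p 1.9e-07). Ccr2 was 4.32-fold higher (3.36 to 5.57; log2 2.11, SE 0.17, adjusted p 6.2e-07). Cxcr6 was 1.75-fold higher (1.31 to 2.35; log2 0.81, SE 0.20, adjusted p 0.0065). All 3 SGC0946 libraries lay above all 3 SGC0649 libraries for each of these genes.

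The 3 lower receptors were the Th1 receptor Cxcr3 and the pair Ccr4 and Ccr8. Cxcr3 was 2.59-fold lower with SGC0946 (95% interval 1.73 to 3.90; log2 -1.38, SE 0.28, adjusted p 0.0018). Ccr8 was 2.14-fold lower (1.51 to 3.04; log2 -1.10, SE 0.24, adjusted p 0.0030). Ccr4 was 1.41-fold lower (1.16 to 1.71; log2 -0.49, SE 0.13, adjusted p 0.011), and this call was lost without YFPpos SGC0649 replicate 3 (adjusted p 0.081) or YFPpos SGC0946 replicate 2 (0.055). Ccr6 had 4 counts with SGC0946 and 3 with SGC0649. Groups did not overlap for 6 of the 7 receptors, against 57.2% of all genes. With DESeq2's size factors in place of TMM, the genes called in this comparison were 1702 higher and 1388 lower, against 1490 higher and 1934 lower, and the 6 receptors kept their directions and calls.

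In YFPneg cells 2 receptors were called, both higher with SGC0946, and 5 were not, beside 8.63% of all genes called (4.99% higher, 3.64% lower). With only these 2 groups in the fit the split over all genes was 184 higher and 52 lower, against 616 and 449. Ccr2 was 2.58-fold higher (95% interval 1.88 to 3.55; log2 1.37, SE 0.22, adjusted p 0.0018) and Cxcr4 2.14-fold higher (1.65 to 2.78; log2 1.10, SE 0.18, adjusted p 0.0021). Cxcr6 had a log2 difference of 0.68 (95% interval 0.089 to 1.27, adjusted p 0.13), Ccr8 -0.76 (-1.35 to -0.18, adjusted p 0.090) and Cxcr3 -0.41 (-1.04 to 0.23, adjusted p 0.41). Ccr4 had -0.12 (-0.45 to 0.21, adjusted p 0.67), and Ccr6 was not called. Groups did not overlap for 4 receptors, against 29.8% of all genes.

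The interaction subtracts the compound difference of YFPneg cells from that of YFPpos cells and so tests whether the sorts differ in it. Cxcr4 alone among the 7 was called, with 1.02 on the log2 scale (SE 0.23, adjusted p 0.043), where 1.15% of all genes were called (0.259% higher, 0.891% lower). Higher calls were 22.5% of these calls, or 32.8% with DESeq2's size factors. The direction of Cxcr4 held under every alternative run, from 0.87 to 1.16. The call was lost with limma-voom (adjusted p 0.11) and when any 1 of 9 cultured libraries was left out (adjusted p 0.059 to 0.15), and was kept without YFPpos SGC0649 replicate 1 or YFPneg SGC0946 replicate 3. Not called were Ccr2 (0.74, SE 0.27, adjusted p 0.23), Cxcr3 (-0.97, SE 0.41, adjusted p 0.31), Ccr4 (-0.38), Ccr8 (-0.34), Cxcr6 (0.13) and Ccr6.

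**Figure D4:**
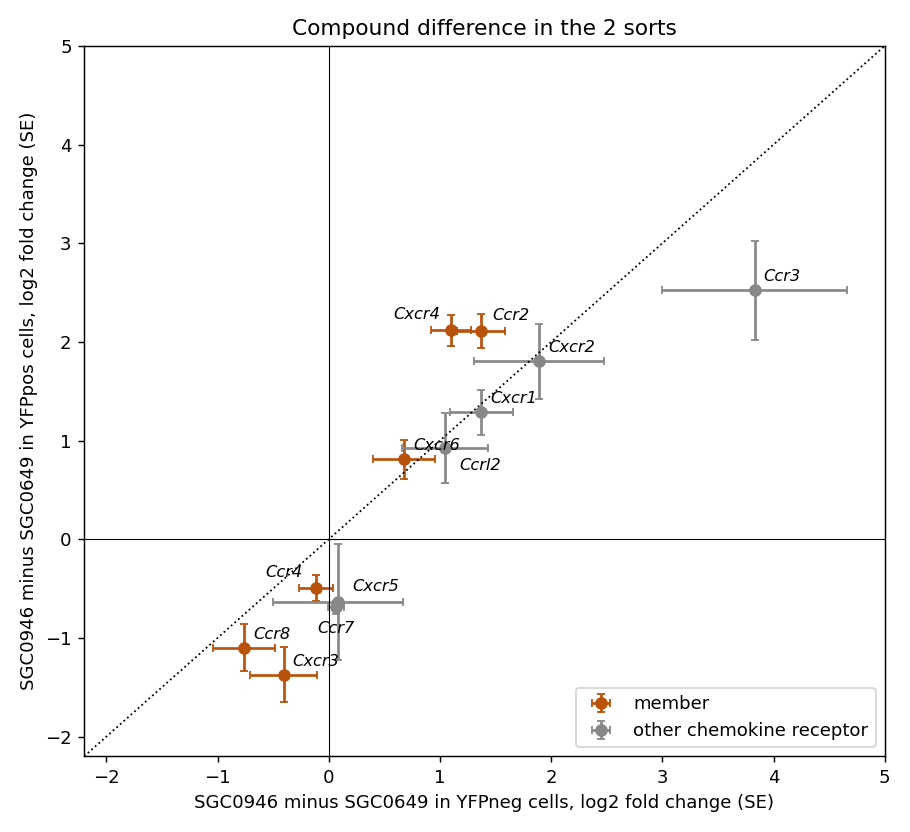
SGC0946 minus SGC0649 as log2 fold change with its SE, in YFPneg cells (x axis) and YFPpos cells (y axis), for 6 of the 7 receptors (orange) and 6 other chemokine receptors (grey). Points on the dotted line have equal differences in both sorts, and Cxcr4 lies above it at 1.10 and 2.12. Ccr6, Ccr1 and Ccr9, with few or no counts in some groups, are left out. Ccr3 is shown although it is as scarce, with a mean of 0.0771 CPM in YFPneg SGC0649 cells and no count in replicate 1 of that group.

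Markers of cell states and of other cell types were read beside these differences. The CD4 T cell list (7 of 7 genes) summed to 3163.6 to 5008.0 CPM over all libraries. The regulatory T cell list (5 of 5 genes) summed to 3072.9 to 3187.5 CPM in YFPpos SGC0649 and 3488.9 to 3771.1 in YFPpos SGC0946 libraries. Its defining gene, Foxp3, was at 16.2 ± 4.59 (SD, n = 3) and 2.31 ± 0.0881 CPM (SD, n = 3). The other genes of the list did not show such a fall. Il2ra, which made up most of the sum, was at 2769.8 and 3150.6 CPM. Ctla4 was at 308.1 and 422.4, Nrp1 at 25.2 and 26.9 and Ikzf2 at 3.41 and 3.03 CPM. In YFPneg cells Foxp3 was at 30.3 CPM with SGC0649 and at 14.9 with SGC0946. The Th2 list (4 of 4 genes) summed to 21.6 to 25.04 CPM in YFPpos SGC0649 and 12.5 to 15.9 in YFPpos SGC0946 libraries, without overlap. In these groups Gata3 was at 18.1 and 12.8 CPM, Il13 at 3.75 and 1.10, Il4 at 0.525 and 0.2502 and Il5 at 0.506 and 0.0812 CPM. In YFPneg cells the Th2 sums overlapped, at 26.3 to 36.4 CPM with SGC0649 and 31.5 to 36.2 with SGC0946. The part of Foxp3 and of the Th2 genes in the lower Ccr4 and Ccr8 was not tested.

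Il17a, the cytokine of Th17 cells, was at 0 in every library, but other genes of the Th17 list had counts. Il23r stood at 2.45 ± 0.403 CPM (SD, n = 3) in YFPpos SGC0649 and at 4.58 ± 1.03 CPM (SD, n = 3) in YFPpos SGC0946 cells, without overlap. Il17f stood at 0.0866 and 0.0970 CPM in these groups. The monocyte or macrophage list (8 of 9 genes in the table), relevant to Ccr2, summed to 5.11 to 5.99 CPM in YFPpos SGC0649 and 9.69 to 10.01 in YFPpos SGC0946 libraries. In the latter Csf1r was at 0 in all 3 libraries, Lyz2 at 0.0970 and Adgre1 at 0.0694 CPM on average, against 145.7 CPM of Ccr2. Itgam, an integrin subunit of this list that NK cells and activated T cells also carry, stood at 1.02 ± 0.803 CPM (SD, n = 3) with SGC0649 and 5.55 ± 0.544 (SD, n = 3) with SGC0946, and Cd68 at 3.92 and 3.01 CPM. The dendritic cell list (6 genes in the table) summed to 38.6 to 48.3 and 91.2 to 101.2 CPM, of which Batf3 made up 39.4 and 92.2 CPM, with Clec9a and Siglech at 0 in both groups. The NK cell list (5 of 5 genes in the table) summed to 3.44 to 7.42 and 11.3 to 12.7 CPM in these groups. The part of these lists in the receptor differences was not tested.

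The other receptors of the family gave a list of 15 genes, of which 8 were tested. With SGC0946 in YFPpos cells 4 of these rose, 1 fell and 3 were not called, beside 12.1% of all genes called higher and 15.7% lower. Their median log2 difference was 1.54, against -0.038 over all genes tested. In YFPneg cells 2 rose and 6 were not called, beside 4.99% of all genes called higher (median 1.21, against 0.0078 over all genes tested). Ccr7, the lymph node homing receptor, fell in YFPpos cells (log2 -0.69, SE 0.065, adjusted p 2.1e-06) and had a log2 difference of 0.063 in YFPneg cells, with an interaction of -0.75 (SE 0.10, adjusted p 0.00086). Cxcr1 and Ccr3 rose in YFPpos cells (log2 1.29, SE 0.23 and log2 2.52, SE 0.50) and in YFPneg cells (log2 1.37, SE 0.28 and log2 3.83, SE 0.83). Ccr3 did so at low levels, 0.464 and 2.69 CPM in YFPpos cells. In YFPneg cells its call was lost with only these 2 groups in the fit (adjusted p 0.23) and without YFPneg SGC0649 replicate 1 (log2 2.88, adjusted p 0.064), a library with no Ccr3 count. The Cxcr1 call in YFPneg cells was also lost without YFPneg SGC0649 replicate 1 (adjusted p 0.073).

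Cxcr6 and Ccr2 belong to a cluster of receptor genes on chromosome 9, and the stretch described was chosen by position after values were seen. From Ccr9 to Ccr2, over 435.1 kb, the annotation holds 9 protein-coding genes, 7 of them tested and 5 of these chemokine receptors. With SGC0946 in YFPpos cells 4 of the 5 receptors rose (Cxcr6, Ccr1, Ccr3 and Ccr2). Ccr1 and Ccr3 did so at low levels, Ccr1 from 0.529 to 4.09 CPM and Ccr3 from 0.464 to 2.69 CPM. Ccr9, with no count in the YFPpos SGC0649 libraries, was not called. In YFPneg cells 2 rose (Ccr3 and Ccr2). Over all genes 12.1% were called higher in YFPpos and 4.99% in YFPneg cells, and since the stretch was chosen with values known, these counts are a description. Of the other 2 genes tested there, Fyco1, which overlaps Cxcr6 on the opposite strand, rose in YFPpos cells (log2 0.53, SE 0.10, adjusted p 0.0012). Lztfl1 had -0.20 (SE 0.13, adjusted p 0.27). Ccr4 and Ccr8, on chromosome 9 outside this stretch, were lower in YFPpos cells.

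Most ligands of the 7 receptors were scarce in these cells, while Cxcl10 had means of 5.56 to 11.7 CPM in the cultured groups. Of 13 listed, 12 were in the table, 4 (Ccl2, Ccl7, Ccl8 and Ccl12) had no count in any library, and 5 were tested. With SGC0946 in YFPpos cells 1 rose and 1 fell, beside 12.1% of all genes called higher and 15.7% lower. Their median was -0.38, against -0.038 over all genes tested. Cxcl10, a ligand of Cxcr3, rose from 5.56 to 11.7 CPM (log2 1.07, SE 0.24, adjusted p 0.0036). Ccl1, the ligand of Ccr8, stood at 5.57 ± 4.81 CPM (SD, n = 3), from 2.68 to 11.1, with SGC0649 and at 0.733 ± 0.326 CPM (SD, n = 3) with SGC0946 (log2 -2.91, SE 0.62, adjusted p 0.0034). Without YFPpos SGC0649 replicate 3 this call was lost (log2 -1.91, adjusted p 0.057). In YFPneg cells 5 of the 5 were not called, beside 8.63% of all genes called. The lowest adjusted p was that of Ccl20 (log2 -3.07, SE 1.26, adjusted p 0.14). Ccl20, the ligand of Ccr6, was higher in YFPpos than in YFPneg cells. With SGC0649 it stood at 3.53 ± 2.79 CPM (SD, n = 3), from 1.77 to 6.75, in YFPpos and at 0.384 ± 0.256 CPM (SD, n = 2) in YFPneg cells (log2 3.19, SE 0.74, adjusted p 0.0027), and the log2 difference was 2.30, adjusted p 0.017 without YFPpos SGC0649 replicate 3 and 4.08, adjusted p 0.011 without YFPneg SGC0649 replicate 2. With SGC0946 it stood at 1.79 ± 0.524 CPM (SD, n = 3) in YFPpos cells and had counts in 1 of the 3 YFPneg libraries (adjusted p 0.00027).

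Of 20 genes of receptor coupling and effectors, all tested, 4 rose and 3 fell with SGC0946 in YFPpos cells. This stood beside 12.1% of all genes called higher and 15.7% lower (median 0.0018, against -0.038 over all genes tested). Among the 20 genes the Rac activator subunit Elmo1 fell (log2 -0.51, SE 0.068, adjusted p 6.0e-05) and the GTPase Rac2 rose (log2 0.33, SE 0.069, adjusted p 0.0021). In YFPneg cells 20 of the 20 were not called, beside 8.63% of all genes called. The lowest adjusted p was that of Rassf5 (log2 0.17, SE 0.069, adjusted p 0.13). Between the sorts with SGC0649, 5 were higher and 5 lower in YFPpos cells, near the shares over all genes (23.9% higher, 21.3% lower; median 0.094, against 0.042 over all genes tested), with the G protein subunit Gng2 higher (log2 0.82, SE 0.069, adjusted p 7.5e-08) and the phospholipase Plcb2 lower (log2 -0.73, SE 0.086, adjusted p 3.7e-06). Of 12 tested genes that damp or take up receptors, 2 rose with SGC0946 in YFPpos cells and 1 in YFPneg cells, and none fell in either, beside 12.1% and 4.99% of all genes called higher. The medians of the list were 0.02 in YFPpos and 0.059 in YFPneg cells. Arrb1, which encodes beta-arrestin 1, rose in both sorts, from 77.4 to 168.1 CPM in YFPpos (log2 1.12, SE 0.13, adjusted p 2.0e-05) and from 84.4 to 167.9 CPM in YFPneg cells (log2 0.99, SE 0.15, adjusted p 0.0014).

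Of 9 transcription factors tied to these receptors in T cells, 4 rose and 3 fell with SGC0946 in YFPpos cells (median 0.053, against -0.038 over all genes tested). Of all genes 12.1% were called higher and 15.7% lower there. In YFPneg cells 2 rose and 1 fell, beside 4.99% of all genes called higher and 3.64% lower. Eomes, a T-box factor related to T-bet, fell from 117.3 to 21.3 CPM in YFPpos cells (log2 -2.46, SE 0.24, adjusted p 3.7e-06). Foxp3 fell in both sorts (log2 -2.81, SE 0.25 in YFPpos and log2 -1.02, SE 0.23 in YFPneg cells), and the YFPneg call was lost without YFPneg SGC0649 replicate 2 (adjusted p 0.097). Tbx21, which encodes T-bet, the Th1 regulator, stood at 280.3 and 322.4 CPM in YFPpos cells (log2 0.20, SE 0.058, adjusted p 0.017). It was named after its values were seen, and its call was lost without YFPpos SGC0649 replicate 3 (adjusted p 0.099) or YFPpos SGC0946 replicate 2 (0.075). Between the sorts with SGC0649, Klf2, which holds T cells in circulation, was lower in YFPpos cells (log2 -2.27, SE 0.18, adjusted p 3.8e-08), as was Gata3, the Th2 regulator (log2 -0.76, SE 0.14, adjusted p 0.00039).

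The receptors did not move as a block. Over the 11 cultured libraries, Pearson's r of log2 CPM was 0.86 between Cxcr6 and Ccr2, 0.76 between Ccr4 and Ccr8 and 0.71 between Cxcr4 and Ccr2. It was -0.88 between Cxcr4 and Ccr8 and -0.78 between Cxcr4 and Cxcr3. Ccr2 and Ccr4 had 0.89 over all 14 libraries and 0.19 over the 11 cultured ones. These values describe libraries that share their groups and scaling, and carry no test.

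The 3 genes most like each receptor were taken by r over the 14 libraries from 8983 candidates with a mean log2 CPM of 3 or more. For Ccr2 they were Acadl (0.9942), Arhgef5 (0.9913) and Slc25a24 (0.9905). Over the cultured libraries alone S100a6 (0.9880) led. For Cxcr4 they were St3gal1 (0.9755), Marveld1 (0.9737) and Cd3g (0.9666), and over the cultured libraries Kctd12 (0.9799). For Cxcr6 they were Etv5 (0.9784), Tuba1a (0.9782) and Gng2 (0.9754), and over the cultured libraries Rbpj (0.9908). For Ccr4 they were Syngr2 (0.9977), Eif5a (0.9963) and Oip5 (0.9963), and over the cultured libraries Mrps22 (0.9855). For Ccr8 they were Gphn (0.9881), Nup205 (0.9842) and Slc19a1 (0.9801). Over the cultured libraries Ddx51 (0.9747) led for Ccr8, with -0.12 over all 14. For Cxcr3 they were Zc3h14 (0.9828), Pgap2 (0.9801) and Nup98 (0.9655). Over the cultured libraries Ino80 (0.9432) led for Cxcr3, with -0.53 over all 14. Ccr6, with few counts, reached no more than Gpank1 (0.8767) over the 14 libraries and Msl2 (0.9145) over the cultured ones.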

How the data were processed

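Bulk RNA of 14 libraries was analysed from raw counts per gene that the authors deposited, made with featureCounts on GRCm38 per the submitters' processing notes. Counting was reverse-stranded, as the file name says. Aligner and annotation: not given in the sources used here. Groups follow the labels, and YFPneg SGC0649 number 63 was not analysed here. Counts were fitted in R 4.3.3 with edgeR 4.0.16: filterByExpr by group (12343 genes left), TMM scaling, 1 coefficient per group over all 14 libraries, and the quasi-likelihood F test for 9 comparisons. The SE was obtained from the log2 fold change and the root of F, with 95% intervals. Tested on simulated data for the YFPpos compound comparison, the fit recovered 100% of 50 genes changed 2-fold and 100% of 50 changed 4-fold upward, and as many downward. The simulation gave all genes the same dispersion and changed only genes above a limit on mean counts. It checks the fit and does not measure the power for these receptors. Counting intervals and floors cover counting error only, since PCR copies are not independent. No replicates agreed within sampling noise. Alternatives were DESeq2 1.42.0, its size factors, limma-voom (limma 3.58.1), no filter on low counts, only the groups compared, a replicate block and leaving out each library. The receptors and gene lists were chosen with earlier results of these data known. Named were the 7 receptors in every comparison, up to 4 genes per list and comparison by smallest p, the 3 genes most like each receptor, Ifng and marker genes. Other names say in the text how they were chosen, or, like the ligands at 0, complete a small count. Some genes that the rule would name are not reported here, and the lists were counted without them. Upstream sequences are from RefSeq (GRCm38.p6, all 7 receptors matched), and gene models from GENCODE M21.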

Additional observations from a re-analysis of the deposited data

Results flagged for a closer look

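The compound difference of Cxcr4 was larger in YFPpos than in YFPneg cells, by 1.02 on the log2 scale (SE 0.23, edgeR adjusted p 0.043 for the interaction). It drew attention because the difference between the sorts passed the test, which it did for no other of the 7 receptors. The log2 difference was 2.12 in YFPpos and 1.10 in YFPneg cells, and the adjusted p of the interaction ranged from 0.0015 to 0.15 over the alternatives.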

How the results depend on the processing

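Of 791 alternative values of the 63 receptor results, 752 kept direction and side of the threshold. None of the 44 called results, Ccr6 against naive cells included, reversed, and 25 of their 531 alternative values lost the call. All 12 reversals were among the 19 results not called, each without 1 library. Over leave-outs the log2 values ran, between compounds in YFPneg cells, over -0.28 to 0.023 for Ccr4 (reversed without YFPneg SGC0946 replicate 3) and -5.69 to 0.58 for Ccr6 (reversed at 0.58, 0.17 and 0.14). In YFPpos cells Ccr6 ran over -0.33 to 0.98 (reversed also at -0.31). Between sorts they ran over -0.41 to 0.27 for Cxcr3 with SGC0649 (reversed without YFPneg SGC0649 replicate 1), -0.064 to 0.28 for Ccr8 with SGC0946 (without YFPneg SGC0946 replicate 3) and -2.64 to 3.21 for Ccr6 with SGC0946 (without YFPneg SGC0946 replicate 1). The interaction ran over -0.18 to 0.40 for Cxcr6 (reversed without YFPneg SGC0649 replicate 1) and -0.42 to 5.84 for Ccr6 (reversed also at -0.017). The receptors called in the interaction were 0 with limma-voom and with the block by replicate digit, and 0 to 1 over leave-outs. Over all genes, calls between compounds in YFPneg cells went from 1065 to 1615 with DESeq2, 236 with only the groups compared and 336 to 1523 over leave-outs, lowest without YFPneg SGC0649 replicate 2. In YFPpos cells 3424 became 4058 with limma-voom and 4807 with only the groups compared (2605 higher, 2202 lower). Over leave-outs it became 1887 to 3447, lowest without YFPpos SGC0649 replicate 3, and 2008 without YFPpos SGC0946 replicate 2. In the interaction 142 became 301 with DESeq2, 57 with only the groups compared and 62 to 239 over leave-outs. The cause was not tested.

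The labels do not say that equal title numbers mark shared samples, and the data did not show it for every pair. YFPneg and YFPpos libraries of a number correlated in their deviations at 0.26, 0.072, 0.13, 0.15 and -0.0068. With the replicate block by title number, Cxcr4 between sorts with SGC0649 lost its call (-0.35, adjusted p 0.090). With the block by digit the Cxcr4 interaction lost its call (1.04, adjusted p 0.058), and no other receptor changed its call under a block. Depth limits Ccr6, with at most 27 counts in a group.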
